A study of Mus musculus with 6 samples.

Results

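The expressed Zfp genes are the mouse genes named Zfp plus a number, with at most 1 letter after it, whose mean array value lay above the median of all genes in lineage-negative, Sca1-positive, cKit-positive (LSK) bone marrow cells. A gene with several probe sets was represented by its brightest one on average over the 6 arrays, and probe sets annotated to more than 1 gene were left out. Of 362 such Zfp genes measured, 209 passed this level and 153 did not, out of 22180 genes in all. The members were chosen by their mean measured level over both genotypes, so their levels are given as a description. The LSK fraction holds hematopoietic stem cells and multipotent progenitors. It was sorted from mice that carried transplanted Tifab-/- marrow (Tifab KO, 3 arrays) or Tifab+/+ marrow (Tifab WT, 3 arrays), with 3 mice in each group per the labels and 1 array per sample. In the labels the recipients of both groups are Boy/J mice given 7.0 Gy and 4.75 Gy, 3 hours apart, and the age or time is 3 months. The labels do not state whether donor cells were separated from surviving host cells in the sort. The TIFAB protein resembles TIFA, which passes innate immune signals to TRAF6, and the series asks how loss of Tifab changes the expression profile of these cells after engraftment.

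Zfp is the mouse name for genes whose proteins carry zinc fingers, short loops held by a zinc ion that mostly read DNA and in some members bind RNA or proteins. The largest class joins an array of such fingers to a KRAB domain, which recruits the co-repressor TRIM28 (KAP1) and the histone methyltransferase SETDB1 to silence retroelements and to hold imprints. Many of these genes arose by duplication and lie next to one another in clusters. Other members are ordinary promoter factors, RNA-binding proteins or ubiquitin ligases, and the shared name says little about what a given member does.

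The arrays gave the following frame for these genes. The Tifab probe set read 5.21, 5.12 and 5.26 in Tifab KO arrays and 4.99, 5.37 and 5.53 in Tifab WT arrays, so it did not separate the groups; whether its probes fall inside the deleted stretch is not known here, and all directions rest on the labels. Macroh2a1, a histone variant gene also on chromosome 13, read 9.07, 8.90 and 9.22 in Tifab KO arrays and 9.88, 10.03 and 9.97 in Tifab WT arrays, without overlap; its difference of -0.90 had the lowest adjusted p of all genes in limma, 0.186. Over all genes the arrays correlated at 0.985 to 0.986 among Tifab KO, 0.976 to 0.979 among Tifab WT and 0.975 to 0.983 between the groups. Over the 209 expressed Zfp genes these correlations were 0.932 to 0.939, 0.907 to 0.931 and 0.879 to 0.934, all across genes and given as a description. Of the LSK markers, Cd34 (10.55 in Tifab KO, 10.42 in Tifab WT), Kit (9.52 and 9.59) and Gata2 (8.67 in both) were bright. So were Meis1 (8.62 and 8.24) and Flt3 (8.29 and 8.53). Of the 9 measured, 6 were higher and 3 lower in Tifab KO. At an unadjusted p under 0.05 in limma were Meis1, higher, and Hlf (7.47 and 7.79), lower, both without overlap. Sca1 (Ly6a) had no probe set of its own symbol in the annotation used. The sums of linear marker values were 5720 to 6891 in Tifab KO and 5875 to 6859 in Tifab WT for 10 neutrophil genes. They were 151 to 174 and 171 to 203 for 7 macrophage genes, and 425 to 1245 and 819 to 1248 for 5 eosinophil, basophil and mast cell genes. At an unadjusted p under 0.05 in limma, 3 of the 10 neutrophil genes and 3 of the 7 macrophage genes were lower in Tifab KO. Also lower were 2 of the 5 eosinophil, basophil and mast cell genes, whose groups overlapped, and 1 macrophage gene was higher. Over all genes 5.51% were lower and 4.74% higher at that p. Of 8 B and plasma cell, 6 T and NK and 4 megakaryocyte and erythroid genes, 0 had such a p. The B and plasma cell sums were 7103 to 7648 in Tifab KO and 5340 to 8529 in Tifab WT. The dimmest gene lay at 4.40 (Il1r2) in the neutrophil list, 3.00 (Cd5l) in the macrophage list and 5.33 (Epx) in the eosinophil, basophil and mast cell list. The part of these cells in the values below was not tested, and in a bulk sort fewer cells of a type and less RNA per cell cannot be told apart.

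The expressed Zfp genes were dimmer than other genes above the median. Their median mean level was 5.68 on the log2 scale, against 6.20 for the other 10881 genes above the same median, and 65 of the 209 lay in the sixth decile of all genes while 11 lay in the brightest. The brightest was Zfp36, which encodes tristetraprolin, a protein that binds AU-rich elements and speeds the decay of cytokine mRNAs; it read 12.23, 12.14 and 12.17 in Tifab KO arrays and 12.17, 12.28 and 12.06 in Tifab WT arrays, and the groups overlapped. Its difference, Tifab KO minus Tifab WT, was 0.01 ± 0.07 (SE), and after quantile normalization or cyclic loess it turned to -0.04 and -0.11. Zfp526 averaged 10.32 ± 0.10 in Tifab KO and 10.39 ± 0.11 in Tifab WT (SD, n = 3 each), and Zfp706 averaged 9.36 ± 0.09 and 9.37 ± 0.27. Zfp955b averaged 8.57 ± 0.10 in Tifab KO and 8.33 ± 0.11 in Tifab WT, and its groups did not overlap. The threshold stood at 4.42, with Zfp407 (4.46), Zfp641 (4.46) and Zfp61 (4.44) just inside it and Zfp932 (4.41), Zfp942 (4.41) and Zfp239 (4.41) just outside. Zfp932, a repressor of endogenous retroviruses, read 3.94, 3.88 and 3.85 in Tifab KO arrays and 6.17, 4.46 and 4.16 in Tifab WT arrays. Its difference of -1.04 became -0.42 without Tifab WT replicate 1.

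As a group the expressed Zfp genes had values on both sides of 0, and no call passed. None of the 209 passed an adjusted p of 0.05 in limma, nor did any of the 22180 genes (0%); the lowest adjusted p among the members was 0.297. At an unadjusted p under 0.05 in limma, 31 members were set apart, 18 higher and 13 lower in Tifab KO, and 178 were not. Of these 31, 7 passed the level cut only through the group where they were high, 6 through Tifab KO (Zfp689, Zfp750, Zfp469, Zfp568, Zfp870 and Zfp407) and 1 through Tifab WT (Zfp956), and such members had to differ. The 31 are 14.8% of the members, beside 10.3% of all genes and 9.24% of the other genes above the median. By direction, 8.61% of the members were higher, beside 4.74% of all genes and 5.66% of the other bright genes. For lower values the shares were 6.22% of members, 5.51% of all genes and 3.58% of the other bright genes. After quantile normalization the shares over all genes became 5.37% higher and 3.82% lower, while the members had 18 higher and 12 lower. The lower count of 13 was 7 without Tifab KO replicate 1, where the share lower over all genes also fell, from 5.51% to 3.84%. It was 8 without Tifab WT replicate 2, where the share over all genes was 5.45%. The lower count thus rested in part on single arrays, and the first fall was in part seen over all genes.

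The groups did not overlap for 41 of the 209 members, or 19.6%, beside 16.1% of all genes and 14.7% of the other genes above the median. Of these, 25 were higher in Tifab KO (12%, beside 7.75% of all genes and 8.81% of the other genes above the median) and 16 lower (7.66%, beside 8.37% and 5.87%). The 25 include the 6 members named above that passed the level cut through Tifab KO only. By sign alone, 111 members were higher and 98 lower, and the share higher was 50% over all genes and 55.6% over the other genes above the median. Differences of at least 0.5 log2 units in either direction were found for 30 members (14.4%), against 5.72% of the other genes above the median. The 30 include members that passed the level cut through 1 group only, such as Zfp689, Zfp750, Zfp469, Zfp568, Zfp870 and Zfp956. Over all 209 there were 14 such members, so nothing is read from this share. The members ran from -0.69 to 1.04 with quartiles at -0.14 and 0.24. Their median difference was 0.05, against 0.03 for the other genes above the median, and it was 0.02 without Tifab WT replicate 1. With a higher cut, at the 60th percentile of level, the members' median turned to -0.0052 and the counts at an unadjusted p under 0.05 in limma were 9 higher and 10 lower of 144. No test of the members against other genes was made, and these shares are a description.

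**Figure D1:**
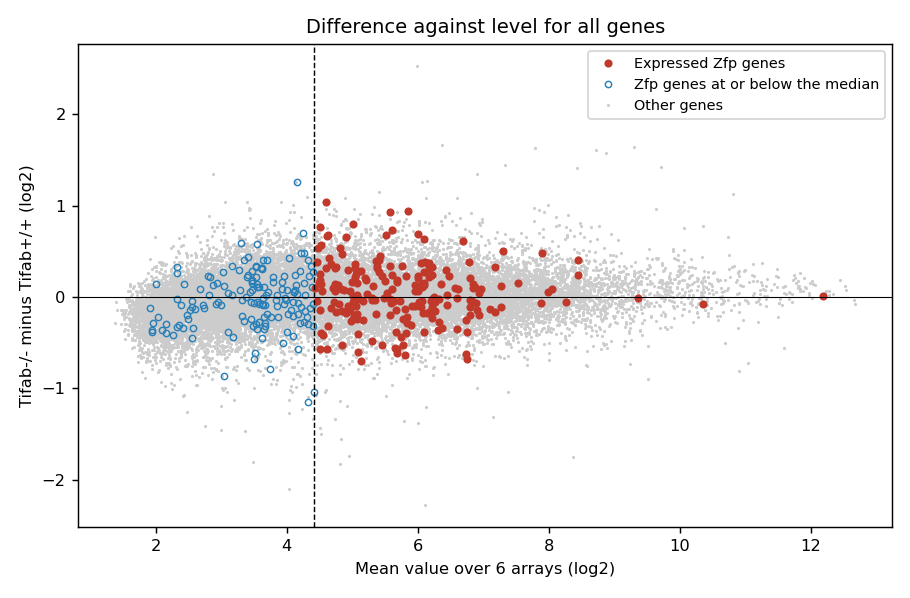
Difference between Tifab-/- and Tifab+/+ arrays (log2, vertical) against the mean value over 6 arrays (log2, horizontal), with expressed Zfp genes filled red, dimmer Zfp genes as open blue circles, other genes in grey and the median of all genes as the dashed line. The 209 expressed Zfp genes lie on both sides of 0, from -0.69 to 1.04.

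Genes of like brightness are compared by decile of level. In the sixth decile, 12 of 65 members had an unadjusted p under 0.05 in limma (18.5%), against 9.94% of other genes in that decile; 7 of the 12 were the members that passed the cut through 1 group only, so nothing is read from this share. In the seventh decile, 12 of 54 members did (22.2%, against 8.32%), in the eighth 2 of 50 (4%, against 7.52%), in the ninth 4 of 29 (13.8%, against 7.31%) and in the brightest 1 of 11 (9.09%, against 13%). Weighted by the members' deciles, the other genes had 8.74% with an unadjusted p under 0.05 and 14% without overlap. The median difference of the members was 0.09, -0.02, 0.07, -0.03 and 0.05 from the sixth to the tenth decile, beside 0.06, 0.02, 0.01, 0.01 and 0.05 in the other genes. Spread among replicates was similar in the dim deciles: the median within-group SD was 0.24 for members and 0.23 for other genes in the sixth decile, and 0.23 and 0.24 in the seventh. In the brightest decile it was 0.23 for the 11 members and 0.16 for other genes.

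**Figure D2:**
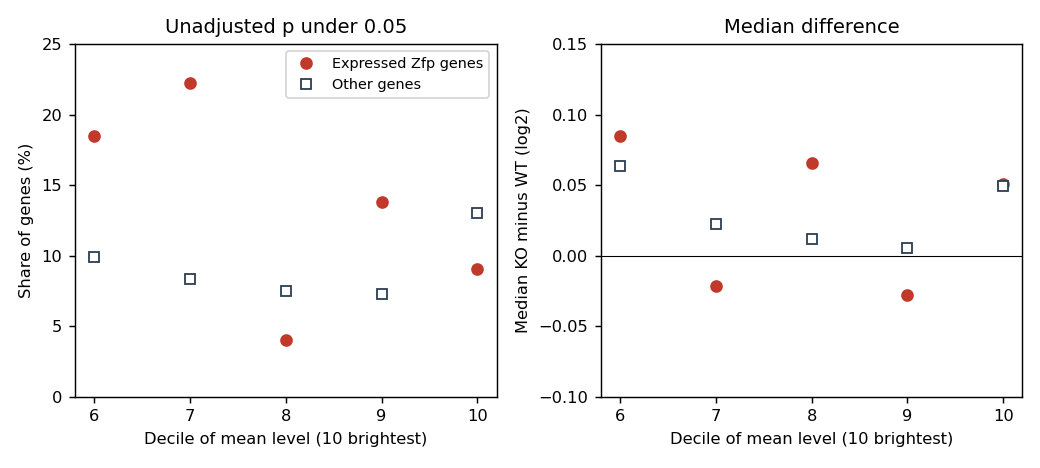
Share of genes with an unadjusted p under 0.05 (left, percent) and median difference (right, Tifab-/- minus Tifab+/+, log2) by decile of mean level, for expressed Zfp genes (filled) and other genes of the same decile (open). The shares of Zfp genes are 18.5% and 22.2% in the sixth and seventh deciles and 4% in the eighth, while other genes lie between 7.31% and 13%. Of the 12 Zfp genes behind the share in the sixth decile, 7 passed the level cut through 1 group only.

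The members' medians lay close together over the arrays. The median deviation of the members from their own mean over 6 arrays was 0.04, 0.02 and 0.01 in Tifab KO replicates 1, 2 and 3, and -0.05, -0.02 and -0.01 in Tifab WT replicates 1, 2 and 3. Other genes, weighted to the same deciles, had 0.01, 0.03 and 0.00 in the Tifab KO arrays and -0.05, -0.00 and -0.00 in the Tifab WT arrays. Tifab WT replicate 2 held the most extreme member values: it was the highest of the 6 arrays for 51 members (24.4%, against 18.2% of other bright genes) and the lowest for 46 (22%, against 18%).

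**Figure D3:**
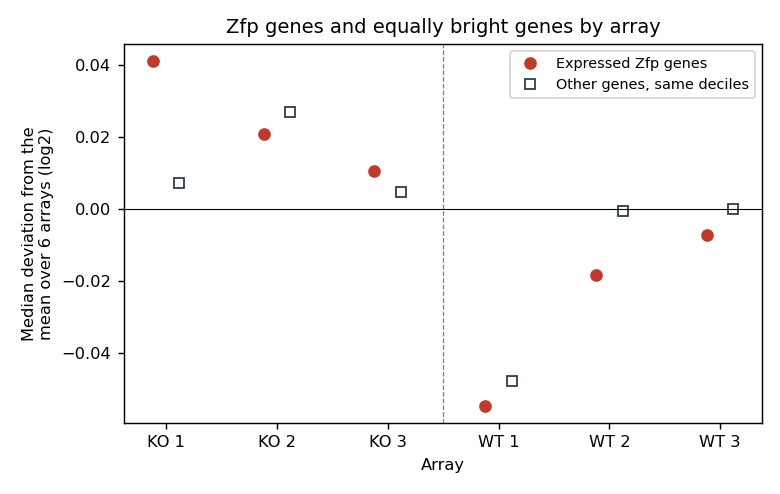
Median deviation from each gene's mean over 6 arrays (log2, vertical) in each array, Tifab-/- arrays at the left and Tifab+/+ arrays at the right, for expressed Zfp genes (filled circles) and other genes weighted to the same deciles (open squares). Tifab WT replicate 1 is lowest for both, at -0.05.

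The 12 members with the largest higher values that did not overlap between groups had differences of 0.61 to 1.04. Zfp689 read 5.18, 5.00 and 5.18 in Tifab KO arrays and 4.25, 4.22 and 3.77 in Tifab WT arrays. All Tifab KO arrays lay above all Tifab WT arrays, and the difference was 1.04 ± 0.18 (SE), 2.06-fold, with adjusted p = 0.297 in limma. With a Tifab WT mean of 4.08, Zfp689 passed the level cut through Tifab KO only and had to differ. Its neighbour on chromosome 7 in the RefSeq gene order of measured genes, Zfp688, read 5.53, 5.12 and 5.04 in Tifab KO arrays and 4.66, 4.61 and 4.45 in Tifab WT arrays. This is a difference of 0.65 ± 0.18 (SE, adjusted p = 0.344 in limma), again without overlap. Zfp729a, from a cluster on chromosome 13, read 6.44, 5.90 and 6.63 in Tifab KO arrays and 5.34, 5.31 and 5.48 in Tifab WT arrays. The Tifab WT arrays lay close together and the Tifab KO arrays were spread over 0.74. Its difference was 0.95 ± 0.20 (SE), 1.93-fold. The adjacent gene with the same number, Zfp729b, averaged 5.62 in Tifab KO and 5.21 in Tifab WT, a difference of 0.41 ± 0.19 (SE), with overlap, or 0.27 without Tifab KO replicate 2. How far the probes of these like-named genes can tell them apart is not known here.

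Zfp322a, which in mouse embryonic stem cells helps to maintain pluripotency, read 5.75, 6.23 and 6.15 in Tifab KO arrays and 4.92, 4.92 and 5.49 in Tifab WT arrays. The difference was 0.93 ± 0.21 (SE), but a dimmer probe set of the gene, at a mean of 3.87, gave 0.04. Zfp958 averaged 5.41 ± 0.23 in Tifab KO and 4.62 ± 0.14 in Tifab WT (SD, n = 3 each). Zfp770 averaged 5.98 ± 0.22 and 5.25 ± 0.10. Zfp750, known as a factor of epidermal differentiation, averaged 4.90 ± 0.22 in Tifab KO and 4.13 ± 0.21 in Tifab WT, and Zfp469, whose human counterpart is mutated in brittle cornea syndrome, averaged 4.97 ± 0.18 and 4.29 ± 0.20. The Tifab WT means of both lay below the median of all genes, as did those of Zfp689 and Zfp568, also among the 12. Each of these passed the level cut through Tifab KO only and had to differ. Zfp933 and Zfp984 had differences of 0.68 ± 0.21 and 0.63 ± 0.23 (SE), the second 0.39 without Tifab WT replicate 1. Zfp524, the brightest of the 12, read 6.98, 6.93 and 7.09 in Tifab KO arrays and 6.09, 6.52 and 6.56 in Tifab WT arrays.

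The 10 members with lower values in Tifab KO, no overlap and an unadjusted p under 0.05 had differences of -0.69 to -0.39. Zfp949 read 4.95, 4.68 and 4.75 in Tifab KO arrays and 5.83, 5.29 and 5.34 in Tifab WT arrays. Its difference was -0.69 ± 0.19 (SE, adjusted p = 0.344 in limma). Zfp189 read 5.32, 5.53 and 5.33 in Tifab KO arrays and 5.92, 6.11 and 5.85 in Tifab WT arrays. Both groups were tight, with SDs of 0.12 and 0.13, and the difference was -0.57 ± 0.16 (SE). Zfp146, whose protein consists almost wholly of zinc fingers, read 6.30, 6.35 and 6.62 in Tifab KO arrays and 6.97, 7.60 and 6.72 in Tifab WT arrays. The top array, Tifab WT replicate 2, stood apart, and without it the difference of -0.67 became -0.42. Zfp58 read 5.57, 5.61 and 5.27 in Tifab KO arrays and 6.20, 6.46 and 5.68 in Tifab WT arrays, a difference of -0.63 ± 0.22 (SE). Zfp747 averaged 5.38 ± 0.21 in Tifab KO and 5.94 ± 0.13 in Tifab WT (SD, n = 3 each), and Zfp81 averaged 5.51 ± 0.10 and 6.04 ± 0.17. Zfp788 and Zfp433 both had -0.52, the second -0.31 without Tifab WT replicate 2, and Zfp128 and Zfp579 had -0.41 and -0.39.

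**Figure D4:**
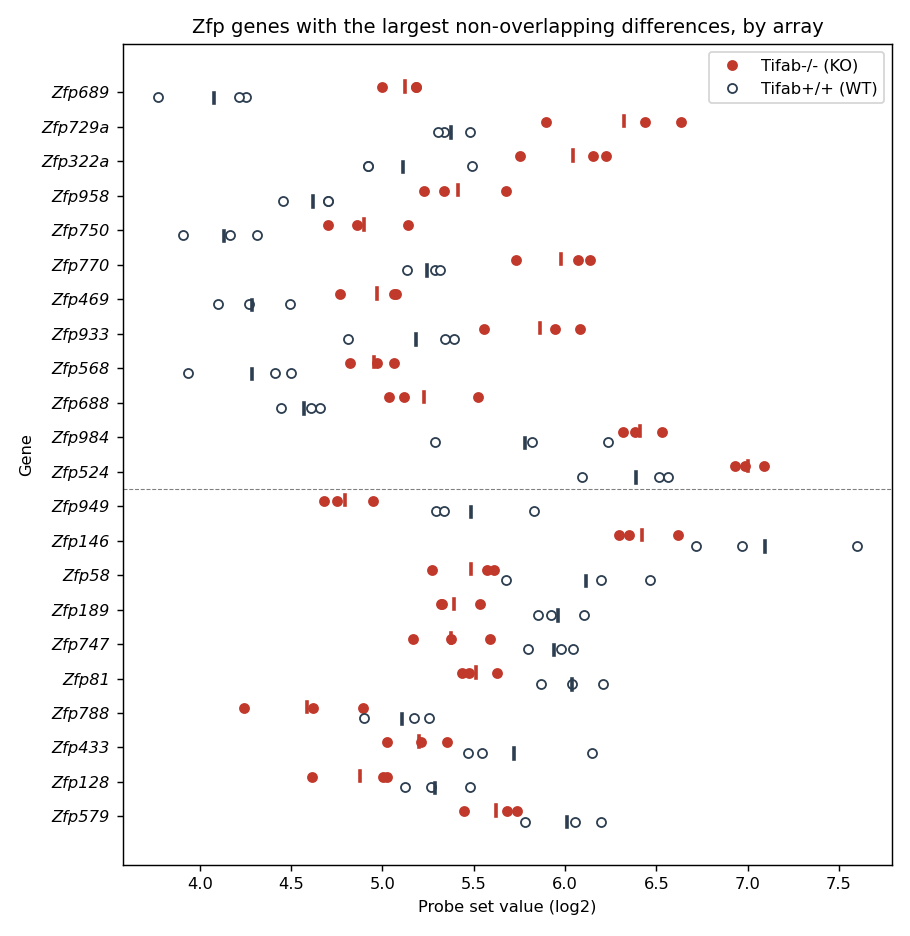
Probe set values (log2, horizontal) of the 22 named expressed Zfp genes in each array, with filled points for the 3 Tifab-/- arrays, open points below them for the 3 Tifab+/+ arrays and bars at the group means; the dashed line divides genes higher (above) from genes lower (below) in Tifab-/-. In none of the 22 do the groups overlap, which the choice of genes required.

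Promoter windows of 9 members are printed next, from 250 bases before to 50 after the annotated start, taken from RefSeq for GRCm38.p6 and written 5′ to 3′ on the gene's strand. The first pair belongs to the neighbours Zfp689 and Zfp688, which were both higher in Tifab KO. Capitals mark CCGGAAG, the core letters of ETS factor sites, on either strand; the Zfp689 window holds none of the strings searched and has no capitals. The windows are Zfp689, chr7:127449109-127449408, minus strand, and Zfp688, chr7:127421985-127422284, minus strand.
Zfp689: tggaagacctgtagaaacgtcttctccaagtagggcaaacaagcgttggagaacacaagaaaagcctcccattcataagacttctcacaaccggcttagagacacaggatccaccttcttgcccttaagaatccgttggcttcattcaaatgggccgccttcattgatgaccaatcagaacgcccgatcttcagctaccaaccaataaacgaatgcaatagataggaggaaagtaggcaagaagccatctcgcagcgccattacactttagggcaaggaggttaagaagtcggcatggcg
Zfp688: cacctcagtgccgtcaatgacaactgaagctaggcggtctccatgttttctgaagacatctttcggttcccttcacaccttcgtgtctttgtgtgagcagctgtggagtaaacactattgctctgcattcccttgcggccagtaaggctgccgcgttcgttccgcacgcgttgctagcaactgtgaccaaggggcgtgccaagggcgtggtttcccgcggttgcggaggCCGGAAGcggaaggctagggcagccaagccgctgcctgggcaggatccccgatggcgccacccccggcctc
The next 6 carry a 12-letter string of the site read by the promoter factor ZNF143, here in capitals; it was matched on either strand with any base allowed at its seventh and eighth letters, and reads in that orientation in the Zfp933 window and reversed and complemented in the others. Zfp729a and Zfp933 were the carriers with higher values at an unadjusted p under 0.05, and Zfp189, Zfp58, Zfp146 and Zfp128 those with lower values. The windows are Zfp729a, chr13:67637732-67638031, minus strand; Zfp933, chr4:147848369-147848668, minus strand; Zfp189, chr4:49520926-49521225, plus strand; Zfp58, chr13:67500473-67500772, minus strand; Zfp146, chr7:30169692-30169991, minus strand; and Zfp128, chr7:12880928-12881227, plus strand.
Zfp729a: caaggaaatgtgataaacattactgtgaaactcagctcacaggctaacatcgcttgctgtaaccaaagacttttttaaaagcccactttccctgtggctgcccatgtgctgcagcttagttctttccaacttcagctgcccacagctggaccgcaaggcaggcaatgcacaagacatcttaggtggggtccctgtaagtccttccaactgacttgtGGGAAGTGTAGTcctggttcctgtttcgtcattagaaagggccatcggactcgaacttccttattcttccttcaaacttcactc
Zfp933: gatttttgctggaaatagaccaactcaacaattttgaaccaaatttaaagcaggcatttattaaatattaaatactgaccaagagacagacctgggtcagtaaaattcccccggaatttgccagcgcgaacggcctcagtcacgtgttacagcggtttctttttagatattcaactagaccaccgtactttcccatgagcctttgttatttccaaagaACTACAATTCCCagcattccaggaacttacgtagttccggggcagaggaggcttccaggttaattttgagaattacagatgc
Zfp189: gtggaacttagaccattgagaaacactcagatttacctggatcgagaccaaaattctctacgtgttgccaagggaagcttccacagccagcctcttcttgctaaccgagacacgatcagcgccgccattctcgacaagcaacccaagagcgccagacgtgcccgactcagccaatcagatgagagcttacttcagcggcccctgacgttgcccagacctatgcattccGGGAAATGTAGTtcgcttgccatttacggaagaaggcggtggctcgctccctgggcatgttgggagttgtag
Zfp58: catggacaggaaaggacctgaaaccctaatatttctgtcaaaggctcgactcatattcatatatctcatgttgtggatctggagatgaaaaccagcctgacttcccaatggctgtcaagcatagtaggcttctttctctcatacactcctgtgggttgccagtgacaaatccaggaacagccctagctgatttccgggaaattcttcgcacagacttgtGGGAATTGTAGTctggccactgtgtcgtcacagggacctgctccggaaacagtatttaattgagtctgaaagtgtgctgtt
Zfp146: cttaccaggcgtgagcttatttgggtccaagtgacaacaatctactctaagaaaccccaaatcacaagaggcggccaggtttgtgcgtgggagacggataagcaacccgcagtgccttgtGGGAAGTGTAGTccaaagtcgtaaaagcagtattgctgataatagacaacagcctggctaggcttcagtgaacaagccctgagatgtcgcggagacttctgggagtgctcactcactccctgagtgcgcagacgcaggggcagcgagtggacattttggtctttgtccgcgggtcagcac
Zfp128: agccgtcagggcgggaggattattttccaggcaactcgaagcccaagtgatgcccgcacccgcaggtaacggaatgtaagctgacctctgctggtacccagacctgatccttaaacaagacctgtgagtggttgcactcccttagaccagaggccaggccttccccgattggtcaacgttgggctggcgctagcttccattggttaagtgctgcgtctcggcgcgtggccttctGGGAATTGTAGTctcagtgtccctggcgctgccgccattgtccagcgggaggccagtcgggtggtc
The last window is that of Zfp36 (chr7:28379179-28379478, minus strand), the brightest member and a known target of inflammatory signals, with its ETS letters in capitals.
Zfp36: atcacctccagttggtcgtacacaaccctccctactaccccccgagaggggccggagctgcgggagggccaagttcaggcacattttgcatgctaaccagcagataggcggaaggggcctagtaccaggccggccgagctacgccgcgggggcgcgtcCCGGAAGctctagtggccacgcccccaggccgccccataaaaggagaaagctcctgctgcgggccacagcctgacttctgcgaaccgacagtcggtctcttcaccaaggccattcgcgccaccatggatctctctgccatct

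RefSeq promoter windows were matched for 169 of the 209 members, 210 windows in all, since some genes have several starts. Their median GC content was 58%, against 60.7% for other genes above the median and 52.7% for all promoters, and the median ratio of observed to expected CpG was 0.706, against 0.755 and 0.384. Both strands were searched for 6 letter strings, each counted on its own whether or not it overlapped another. The ZNF143 string was in 23 windows of 23 members (11%), beside 3.85% of windows of other genes above the median and 1.81% of all 32851 windows. This string was added after like letters were seen in members' windows. It began at a median of 34 bases before the annotated start. Of the 23 members, 13 were higher and 10 lower in Tifab KO, with 2 and 4 at an unadjusted p under 0.05 in limma. Of the 146 members whose windows lack it, 77 were higher and 69 lower, with 10 and 8. Over all genes 4.74% were higher and 5.51% lower at that p. The carriers are few and the string was chosen from these windows, so nothing is read from their counts. The median differences were 0.09 with the string and 0.03 without it. Thus both directions occurred with and without these letters. Zfp143, the mouse gene of this factor, was not analysed here, and Zfp523, the gene of its paralogue ZNF76, had a difference of -0.04 ± 0.18 (SE), or 0.09 without Tifab KO replicate 2.

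The ETS letters CCGGAAG were in 19.5% of member windows, 17.6% of windows of other genes above the median and 8.86% of all windows. For the NRF1 site the shares were 3.33%, 2.1% and 0.971%, and for the YY1 letters AAGATGGC 5.71%, 4.42% and 2.75%. For GGGGCGGGG, read by SP and KLF factors, they were 14.8%, 21.4% and 11.4%. The NF-kB site was in 2 member windows, those of Zfp84 and Zfp617 (0.952%), beside 0.433% of windows of other bright genes and 0.411% of all. Neither of these belonged to a member with an unadjusted p under 0.05. Some members at an unadjusted p under 0.05 share part of their window with a gene on the other side. The windows of Zfp408 and Arhgap1 overlap by 174 bases. Arhgap1 had 0.18, not at that p, beside 0.45 for Zfp408. The windows of Zfp146 and Gm5113 overlap by 233 bases, and Gm5113 had a difference of -0.54, at an unadjusted p under 0.05 in limma and in the direction of Zfp146. Those of Zfp189 and the mitochondrial ribosomal gene Mrpl50 overlap by 192 bases, and Mrpl50 had 0.24, not at that p, or -0.08 without Tifab KO replicate 3.

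By role, no list had more than 1 member in either direction at an unadjusted p under 0.05. At that p were 10.3% of all genes and 9.24% of the other genes above the median. The role lists here and below are short, and nothing is read from their counts. In the group that silences retroelements or guards imprints, 4 of 7 genes passed the level, with 1 higher, 1 lower and 2 neither at an unadjusted p under 0.05 in limma, and a median of 0.21. Of the 3 below the level, Zfp708 (2.94, 3.28 and 3.28 in Tifab KO arrays and 3.82, 3.70 and 4.02 in Tifab WT arrays) and Zfp932 were also lower at that p, with -0.68 and -1.04, and Zfp819 had 0.26 without such a p. Zfp568, which represses a placental transcript of Igf2, read 4.97, 5.06 and 4.82 in Tifab KO arrays and 4.50, 4.41 and 3.94 in Tifab WT arrays, without overlap. Its difference was 0.67 ± 0.19 (SE), and it passed the level through the Tifab KO arrays. Zfp445, which helps to maintain imprints, read 6.41, 6.28 and 6.59 in Tifab KO arrays and 7.28, 7.36 and 6.51 in Tifab WT arrays. Tifab WT replicate 3 lay within the Tifab KO values, and the difference was -0.62 ± 0.23 (SE), so these genes lay on opposite sides. Zfp809, which silences murine leukemia viruses, had 0.38 ± 0.22 (SE), or 0.20 without Tifab KO replicate 1 and 0.23 without Tifab WT replicate 2. Zfp57, the other imprint factor, had 0.05 ± 0.27 (SE) and turned to -0.11 without Tifab WT replicate 1.

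Of the RNA and ribosome group all 9 genes passed the level; 6 were higher, 3 lower and 0 had an unadjusted p under 0.05 in limma, with a median of 0.12. Zfp622, a factor of large ribosomal subunit maturation, read 7.70, 7.91 and 8.79 in Tifab KO arrays and 7.92, 7.57 and 7.47 in Tifab WT arrays, and its difference of 0.48 became 0.15 without Tifab KO replicate 3. Zfp385a, an RNA-binding partner of p53, had 0.38 ± 0.20 (SE), or 0.20 without Tifab KO replicate 1. Zfp106, an RNA-binding protein needed in motor neurons, had 0.33 ± 0.19 (SE), or 0.21 without Tifab KO replicate 2, with -0.01 in its other probe set. Zfp326, which couples transcript elongation to splicing, had -0.16, or -0.02 without Tifab WT replicate 2 and -0.31 without Tifab WT replicate 3, and Zfp598, a ubiquitin ligase that marks collided ribosomes, had -0.04.

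Among blood and stem cell factors 8 of 11 measured genes passed the level; 2 were higher, 6 lower and 0 had an unadjusted p under 0.05 in limma, with a median of -0.14. Zfp521, a factor of hematopoietic progenitors that restrains EBF1 in the B lineage, read 6.55, 6.62 and 6.64 in Tifab KO arrays and 7.23, 6.65 and 6.69 in Tifab WT arrays. All Tifab KO arrays were below all Tifab WT arrays, but the difference of -0.26 ± 0.18 (SE) was -0.07 without Tifab WT replicate 1. Zfp703 had -0.38 ± 0.24 (SE), or -0.15 without Tifab KO replicate 2 and -0.66 without Tifab KO replicate 3. Zfp217, whose human counterpart is amplified in breast cancer, had -0.24, or -0.11 without Tifab WT replicate 2 and -0.37 without Tifab WT replicate 1. Zfp318, which controls IgD expression in B cells, had 0.22, or 0.06 without Tifab KO replicate 2, 0.11 without Tifab WT replicate 2 and 0.37 without Tifab KO replicate 3. The pluripotency gene Zfp42 (Rex1) lay below the median, at 3.26 to 3.51 in Tifab KO and 3.33 to 3.46 in Tifab WT.

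In the ubiquitin, SUMO and signalling group all 4 measured genes had lower means in Tifab KO, 1 of them at an unadjusted p under 0.05 in limma. That gene was Zfp369 (also called NRIF2), with 5.30, 4.99 and 5.86 in Tifab KO arrays and 5.80, 6.36 and 5.83 in Tifab WT arrays, a difference of -0.62 ± 0.25 (SE). Tifab KO replicate 3 lay among the Tifab WT values. Its relative Zfp110 (NRIF), a partner of the p75 neurotrophin receptor that TRAF6 ubiquitinates, had -0.29 ± 0.19 (SE), or -0.14 without Tifab WT replicate 2 and -0.46 without Tifab WT replicate 3. Zfp598 and the SUMO ligase gene Zfp451 had -0.04 and -0.01, and both signs turned with single arrays left out. Of 8 promoter and nuclear factors, 4 were higher and 4 lower, and 1 had an unadjusted p under 0.05. Zfp207 (BuGZ), which binds spindle microtubules and helps chromosomes to align, read 8.66, 8.77 and 8.50 in Tifab KO arrays and 8.11, 8.03 and 8.57 in Tifab WT arrays, with overlap through Tifab WT replicate 3. Its difference was 0.40 ± 0.16 (SE). Zfp687 and Zfp592, which act together in a chromatin complex with ZMYND8, had -0.34 ± 0.17 and 0.16 ± 0.17 (SE). Without Tifab KO replicate 2 the first was -0.19, and with single arrays left out the second ran from 0.05 without Tifab KO replicate 1 to 0.33 without Tifab KO replicate 3.

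On the chromosomes, the members were most numerous on chromosome 7, with 53, followed by 22 on chromosome 17 and 16 on chromosome 8, in the RefSeq annotation of GRCm38.p6. On chromosome 7, 31 were higher and 22 lower, with 4 and 5 at an unadjusted p under 0.05 in limma. On chromosome 6, 3 were higher and 10 lower (1 at that p in each direction), and on chromosome 4, 7 were higher and 1 lower (2 and 1 at that p). Tifab itself lies on chromosome 13, where 6 members were higher and 6 lower, with 2 at that p in each direction: Zfp729a and Zfp322a higher, Zfp58 and Zfp369 lower. The directions of these 12 members were thus mixed, and 14.8% of all members were at that p. Most of the dimmer Zfp genes on chromosome 13, below the level cut, were lower in Tifab KO. Only Zfp874a (-1.15), Zfp708 (-0.68) and Zfp456 (-0.43) of them were at that p, all lower, beside 5.51% of all genes lower. Zfp366, Zfp459, Zfp759 and Zfp934 were higher, without such a p. These genes are few, and nothing is read from their direction. The link to the place of Tifab was not tested.

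Among measured genes, 34 adjacent pairs consisted of 2 expressed Zfp genes. The signs were the same in 17 pairs (50%), beside 52.1% of 6582 adjacent pairs of other genes above the median. The differences of the 34 pairs correlated at r = 0.27 (over pairs that share arrays and in part genes, as a description). In 1 pair, Zfp688 with Zfp689, both genes had an unadjusted p under 0.05 in limma, and they differed in the same direction. Zfp689 passed the level cut through Tifab KO only, so nothing is read from this pair. Zfp382 and Zfp146, adjacent on chromosome 7, had -0.39 and -0.67, whereas Zfp81 at -0.53 lies beside Zfp955b at 0.24 on chromosome 17. Also on chromosome 7, Zfp747 at -0.56 lies beside Zfp764 at 0.21. Zfp382 was -0.22 without Tifab WT replicate 3, and Zfp764 was 0.12 without Tifab KO replicate 3.

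**Figure D5:**
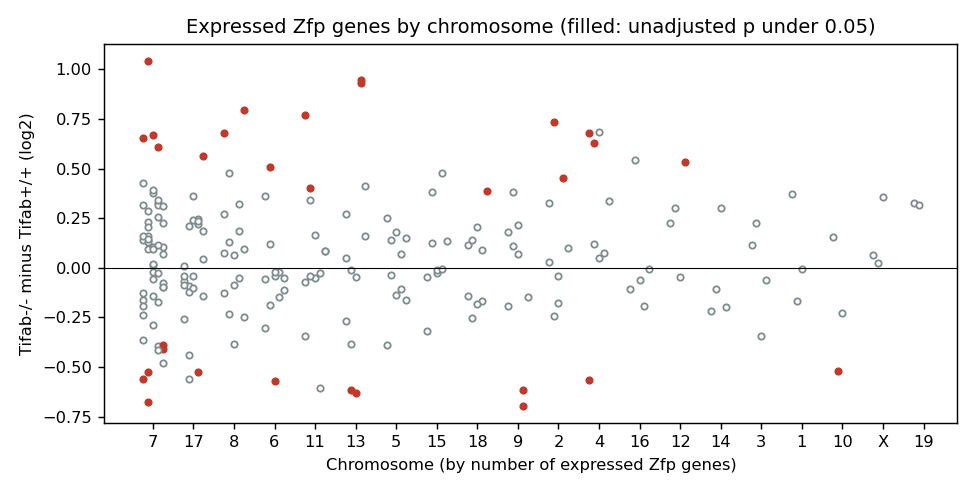
Difference between Tifab-/- and Tifab+/+ arrays (log2, vertical) of each expressed Zfp gene by chromosome (horizontal, ordered by the number of members), filled where the unadjusted p was under 0.05. Chromosome 7 holds 53 members, with 4 filled points above 0 and 5 below, and filled points of both signs also stand on chromosomes 17, 13, 6 and 4.

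Among Zfp genes below the level cut, differences also went in both directions. Zfp119a, below the level cut, read 4.11, 5.09 and 5.16 in Tifab KO arrays and 3.54, 3.47 and 3.55 in Tifab WT arrays, while Zfp119b read 1.87, 4.11 and 1.84 in Tifab KO arrays and 3.52, 3.38 and 3.51 in Tifab WT arrays. Tifab KO replicate 2 lay above every Tifab WT array for Zfp119b, and its difference of -0.86 was -1.61 without that array, -0.49 without Tifab KO replicate 1 and -0.48 without Tifab KO replicate 3. Zfp874a, likewise below it, read 3.88, 3.98 and 3.41 in Tifab KO arrays and 4.48, 5.04 and 5.19 in Tifab WT arrays. Both had larger differences, 1.26 and -1.15, than any expressed member, and they were named after their values were seen. Of the 153 dimmer Zfp genes, 17 had an unadjusted p under 0.05 in limma (11.1%), 7 higher and 10 lower, with a median of -0.04. Over all genes the share was 10.3%, with 4.74% higher and 5.51% lower. The share of the dimmer Zfp genes is near it, and nothing is read from this count.

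Several members rest on 1 of several probe sets. Of 16 members with more than 1, 12 had a further probe set whose difference had the other sign. In Zfp709 the probe set used gave 0.32 and the dimmer one -0.78. For Zfp39 they gave -0.34 and 0.09, for Zfp784 0.31 (0.08 without Tifab KO replicate 2) and -0.27, and for Zfp597 -0.19 and 0.42. A further 44 probe sets annotated to a Zfp gene together with another gene were left out.

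The partners through which KRAB zinc fingers silence chromatin had means on both sides of 0. All 25 measured genes, 1 of them the member Zfp57, lay above the median. Of these, 13 were higher and 12 lower in Tifab KO, with a median of 0.02. An unadjusted p under 0.05 in limma was found for 2 of the 25, beside 10.3% of all genes and 9.24% of the other genes above the median. This count is no larger than those shares, and the genes below are given as values. Cbx5, the gene of heterochromatin protein HP1 alpha, read 8.54, 8.42 and 8.47 in Tifab KO arrays and 8.94, 8.79 and 8.68 in Tifab WT arrays, a difference of -0.33 ± 0.12 (SE) without overlap. Setdb1, the histone methyltransferase, read 6.73, 6.88 and 7.26 in Tifab KO arrays and 6.62, 6.50 and 6.38 in Tifab WT arrays, a difference of 0.46 ± 0.17 (SE) without overlap. Trim28, the co-repressor itself, averaged 8.75 ± 0.09 in Tifab KO and 8.79 ± 0.14 in Tifab WT (SD, n = 3 each). Ehmt2, a histone methyltransferase gene, had 0.36 (0.22 without Tifab KO replicate 1), Morc3 0.33 (0.16 without Tifab KO replicate 2), Smchd1 0.28 (0.12 without Tifab KO replicate 2 and 0.49 without Tifab WT replicate 3) and the HP1 gene Cbx3 0.22.

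Other zinc-finger families above the median are given by their counts. At an unadjusted p under 0.05 in limma there was 1 of 14 Zscan and Zkscan genes (7.14%), 1 of 31 Zbtb genes (3.23%), 2 of 16 Klf genes (12.5%) and 1 of 17 Zc3h genes (5.88%). The counts were 0 of 19 Zdhhc genes and 2 of 34 Trim genes (5.88%). The share was 9.24% of the other genes above the median and 10.3% of all genes. The numbers of genes in these families are small. The Klf share rests on 2 genes and is near both of those shares, so nothing is read from it. Among expressed Zfp genes the share was 14.8%, and 7 of those 31 genes passed the level cut through 1 group only. No test between these families was made.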

How the data were processed

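RNA of LSK cells was measured on Affymetrix MoGene ST arrays, 3 for Tifab KO and 3 for Tifab WT. The authors deposited log2 values for 41345 probe sets, made with Affymetrix Expression Console per the submitters' processing notes; background correction, summary and normalization were not given in the sources used here. Array medians lay between 4.05 and 4.10, and no further normalization was applied. The platform annotation gave 1 symbol to 23521 probe sets, which left 22180 genes. Groups were compared with limma 3.58.1 in R 4.3.3 (lmFit, eBayes with an intensity trend, genotype as the only term, two-sided, Benjamini-Hochberg over all genes), tested first on simulated data. P-values measure the spread between these 3 arrays a group, whose number limits the precision. The members, lists and tests were chosen with earlier results of these data known.

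Named members are up to 12 in each direction with the largest non-overlapping differences at an unadjusted p under 0.05, since none passed after adjustment, with the smallest p values of each role list, the 6 brightest, those at the level cut and 6 partner genes. Others are named after their values were seen, among them Zfp119a, Zfp874a, Zfp709, Zfp523 and the neighbours. Alternatives were other normalizations, moderation settings, filters, probe set means, the replicate number as a block, single arrays left out and a higher level cut. No scan or slide batch was labelled.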

Additional observations from a re-analysis of the deposited data

How the results depend on the processing

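Over all alternatives 0 of the expressed Zfp genes passed the adjusted threshold in limma. With single arrays left out, the count over all genes ran from 0 to 1, that of members higher at an unadjusted p under 0.05 from 16 to 25, that of members lower from 7 to 15, and the members' median difference from 0.016 to 0.060. With members above the 60th percentile of level there were 144 members, 9 of them higher and 10 lower, with a median of -0.0052; fewer genes enter by construction. The replicate numbers did not pair the arrays: the correlations of deviations were 0.02, -0.03 and -0.09, and 1 of 6 arrays correlated best with its own number. With the replicate block, 16 members were higher, 14 lower and 0 genes passed.

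Of the 88 named genes for which the alternatives were run, 21 changed sign under at least 1 alternative, and the cause was not tested. Zfp36 had -0.040 and Gata2 -0.055 after quantile normalization, and Zfp36 -0.11 and Gata2 -0.049 after cyclic loess. With median centring Gata2 had -0.0016 and Zfp42 -0.0082. With array weights Zfp42 had -0.0020, Zfp57 -0.010 and Zfp451 0.017. With probe sets averaged per gene Zfp706 had 0.070, Zfp330 0.13, Cbx3 -0.035, Zfp597 0.11 and Zfp709 -0.23. With single arrays left out the ranges were -0.18 to 0.24 for Zfp451, -0.042 to 0.065 for Zfp36, -0.16 to 0.10 for Zfp641, -0.11 to 0.36 for Zfp57, -0.10 to 0.069 for Zfp598, -0.020 to 0.25 for Zfp292, -0.15 to 0.12 for Zfp706, -0.19 to 0.069 for Zfp330, -0.13 to 0.66 for Zfp942, -0.27 to 0.11 for Zfp239, -0.037 to 0.27 for Zfp61, -0.065 to 0.13 for Gata2, -0.083 to 0.43 for Mrpl50, -0.097 to 0.037 for Trim28, -0.066 to 0.057 for Zfp42, -0.18 to 0.094 for Zfp523, -0.12 to 0.31 for Zfp84 and -0.25 to 0.017 for Tifab. The other genes among these 88 kept their sign under every alternative run. Signal limits the dim members, 65 of which lie in the sixth decile of level.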
